A study of Mus musculus with 14 samples.

Results

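The 9 transcription factors described here set up and maintain the identity of microglia and macrophages: PU.1 (*Spi1*), IRF8 (*Irf8*), RUNX1 (*Runx1*), MEF2A and MEF2C (*Mef2a*, *Mef2c*), c-MAF (*Maf*), C/EBPβ (*Cebpb*), and BHLHE40 and BHLHE41 (*Bhlhe40*, *Bhlhe41*). They were listed by name, for their known roles but with earlier results of these data known, and all 9 were found among the 33939 genes measured. RNA-seq was performed on CD11b+ microglia/macrophages, which were separated with magnetic beads from the contralateral (CL, non-lesion) and ipsilateral (IL, lesion) hemispheres of mice 3 days after traumatic brain injury (TBI) by controlled cortical impact. Control mice (Ctrl, called wild-type in the titles of the labels) were *Cx3cr1-CreER+/-*, and knockout mice (*Nhe1* cKO) were *Cx3cr1-CreER+/-;Nhe1flox/flox*. Mice of both genotypes were C57BL/6 males aged 8 to 12 weeks and received tamoxifen, so the control cells also carried the Cre allele. Ctrl mice gave 4 libraries of each hemisphere and cKO mice gave 3 of each, with numbers that are taken here to mark 8 animals. Of these, 6 mice gave both hemispheres, and the numbers 784 (cKO, IL cells) and 788 (cKO, CL cells) occur once each. The labels do not say whether 784 and 788 are separate animals.

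The Cre recombinase is driven by *Cx3cr1*, a gene of microglia and other long-lived macrophages that monocytes also use. Tamoxifen was given well ahead of the injury, with a wait over which blood monocytes turn over, so monocytes that entered the lesion may have kept *Nhe1*. CD11b is shared by microglia, macrophages, monocytes and neutrophils. In such bulk samples, fewer cells of a type and less RNA per cell cannot be told apart.

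As background, PU.1 opens and holds the enhancers of the whole myeloid lineage, and it does so at many sites with partners such as IRF8, RUNX1 and C/EBP factors. The brain adds MEF2 and MAF family factors to this core, which help to keep microglia in their resting state, whereas C/EBPβ drives inflammatory genes in activated macrophages. BHLHE40 and BHLHE41 are related basic helix-loop-helix repressors that bind the E-box CACGTG and act in the proliferation and activation of macrophages.

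Promoter sequence was at hand from RefSeq (GRCm38.p6) for 6 of the 9 factors, *Irf8*, *Mef2a*, *Mef2c*, *Runx1*, *Cebpb* and *Bhlhe41*, as 10 windows, and the 250 bases upstream of each start were searched on both strands. The words searched were CACGTG (the E-box of BHLHE40 and BHLHE41), GAGGAA (the core of many PU.1 sites), a pair of GAAA blocks with any 2 bases between them (IRF), TTGCNNAA (C/EBP) and TGTGGT (RUNX), none of which overlapped another in these windows. Windows of 4 factors are shown 5′ to 3′ on the strand of the gene, with matches in capitals. *Mef2c* has further windows that are not shown.
*Bhlhe41*, chr6:145865421-145865670, minus strand: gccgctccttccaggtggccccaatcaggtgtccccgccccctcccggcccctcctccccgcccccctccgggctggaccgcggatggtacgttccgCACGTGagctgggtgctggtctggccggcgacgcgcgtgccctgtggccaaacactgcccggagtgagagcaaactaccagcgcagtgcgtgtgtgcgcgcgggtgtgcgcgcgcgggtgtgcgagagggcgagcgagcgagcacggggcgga
*Mef2a*, chr7:67372859-67373108, minus strand: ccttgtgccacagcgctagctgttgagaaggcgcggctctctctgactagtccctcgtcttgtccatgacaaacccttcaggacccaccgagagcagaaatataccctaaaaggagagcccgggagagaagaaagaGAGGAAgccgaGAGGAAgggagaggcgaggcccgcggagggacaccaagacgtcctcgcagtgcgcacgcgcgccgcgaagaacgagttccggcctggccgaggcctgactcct
*Mef2c*, chr13:83503784-83504033, plus strand: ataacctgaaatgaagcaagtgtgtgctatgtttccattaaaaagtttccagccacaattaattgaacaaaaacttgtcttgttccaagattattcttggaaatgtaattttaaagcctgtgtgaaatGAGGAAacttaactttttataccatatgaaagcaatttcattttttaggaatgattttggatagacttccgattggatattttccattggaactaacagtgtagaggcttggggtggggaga
*Cebpb*, chr2:167688665-167688914, plus strand: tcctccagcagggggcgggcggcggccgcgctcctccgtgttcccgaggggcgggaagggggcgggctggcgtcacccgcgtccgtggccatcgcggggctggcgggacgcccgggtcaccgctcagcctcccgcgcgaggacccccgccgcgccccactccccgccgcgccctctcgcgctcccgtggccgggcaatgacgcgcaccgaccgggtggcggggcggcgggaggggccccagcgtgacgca
The E-box stood 153 bases upstream of the *Bhlhe41* start, and a further E-box was found in the upstream window of *Runx1* that starts at base 92826075 of chromosome 16. Of 32851 promoter windows, 6.02% held the E-box and 23.3% held GAGGAA. The *Mef2a* window held GAGGAA at 2 places and this *Mef2c* window held it at 1, and further matches lay in another *Mef2c* and another *Runx1* window. The GC-rich *Cebpb* window (81.6% G or C), the *Irf8* windows and the remaining *Mef2c* window held none of the words. The IRF, C/EBP and RUNX words were in none of the 10 windows and in 2.98%, 9.56% and 14.05% of all windows. These are matches of letters and do not show binding.

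Depth ranged from 12.2 to 41.6 M reads over the 14 libraries. Levels are given as CPM (reads of a gene, scaled so that every library sums to 1e+06). The 10 homeostatic microglia genes summed to between 17539 and 44355 CPM, and *Itgam*, which encodes CD11b, was at 650 CPM or more in every library. The Ctrl IL library of mouse 3546 stood apart, with the lowest depth (12.2 M reads) and the lowest levels of 2 abundant microglia and macrophage genes, *Tyrobp* (161.9 CPM, against 590 CPM or more in each other library) and *Aif1* (71.2 CPM, against 271 CPM or more). Calls of the factors between hemispheres that turn on this library are given with and without it, and the part of these features in them was not tested. Differences are given on the log2(CPM + 1) scale after scaling between the libraries of each comparison, and a gene was called when its adjusted p in limma was at or under 0.05 and its fold change at least 1.2. Among all genes called between hemispheres, 55.9% in Ctrl and 55.2% in cKO were higher in IL cells, and both shares were 43.4% without the scaling.

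Between hemispheres, *Bhlhe40* rose on the lesion side in both genotypes, *Cebpb* rose and *Mef2c*, *Mef2a* and *Maf* fell in cKO mice, and *Spi1*, *Irf8*, *Runx1* and *Bhlhe41* were not called in either genotype. No factor passed the test between cKO and Ctrl. All 9 were present in every library, and *Bhlhe40* in a Ctrl CL library was the lowest value of the set at 18.3 CPM. In IL against CL cells of Ctrl mice, 1 of 9 factors was higher (*Bhlhe40*) and 0 were lower, beside 3.74% of 16376 genes tested that were called higher and 2.95% that were called lower. In cKO mice 2 of 9 were higher (*Bhlhe40*, *Cebpb*) and 3 were lower (*Maf*, *Mef2a*, *Mef2c*), beside 12.5% and 10.2% of 16758 genes. The median difference of the 9 factors was -0.15 in Ctrl and -0.23 in cKO, beside -0.033 and 0.0085 over all genes tested. With the mouse as a block, which sets each IL library against the CL library of the same mouse, 4 of 9 factors were called in Ctrl. *Bhlhe40* and *Cebpb* rose and *Mef2a* and *Mef2c* fell, beside 9.88% of genes higher and 10.3% lower in that fit. In cKO the same 5 factors were called with the block as without it. Only cKO mice 791 and 3592 gave both hemispheres, so the cKO fit with the block rests on 2 pairs. In a single fit of the 14 libraries, *Bhlhe40*, *Cebpb* and *Mef2c* were called in Ctrl, but *Cebpb*, *Maf* and *Mef2a* were no longer called in cKO (adjusted p = 0.143, 0.0580 and 0.0950, limma). Calls over all genes moved the same way in that fit, with more in Ctrl and fewer in cKO (counts below).

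**Figure D1:**
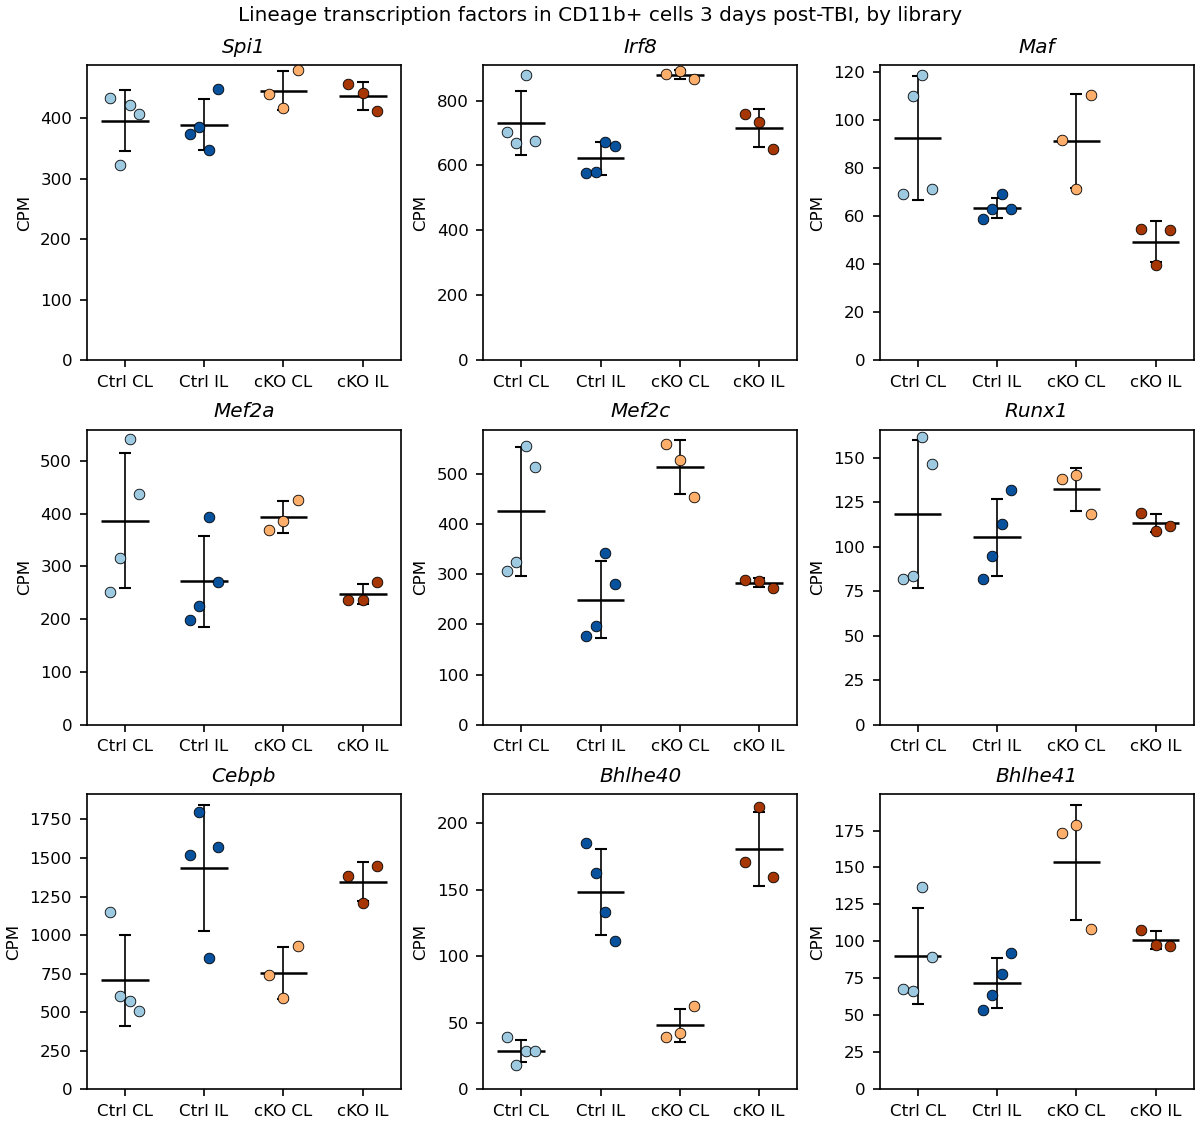
Deposited CPM of the 9 factors (y axis, linear from 0) in each of the 14 libraries, by genotype and hemisphere (x axis), with the mean as a bar and the SD as an error bar. *Bhlhe40* lies between 18.3 and 62.2 CPM in CL libraries and between 111.3 and 212.0 CPM in IL libraries, whereas *Spi1* lies between 322 and 480 CPM throughout.

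*Spi1*, *Irf8* and *Runx1*, the factors of the core myeloid program, were not called in any comparison. *Spi1* (chr2:91082390-91115756, plus strand, GRCm38, as are all gene positions below) had 433.6, 322.2, 421.5 and 407.7 CPM in the Ctrl CL libraries of mice 3541, 3545, 3546 and 3551, and 374.1, 386.3, 348.4 and 448.1 CPM in their IL libraries. Its values in cKO mice were 440.8, 416.9 and 480.0 CPM in CL cells of mice 788, 791 and 3592, and 457.5, 441.7 and 411.5 CPM in IL cells of mice 784, 791 and 3592. The hemispheres overlapped in both genotypes, and the highest of the 14 values was 1.49 times the lowest, the smallest ratio among the 9 factors.

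Between hemispheres, *Spi1* differed by 0.06 in Ctrl (95% interval -0.31 to 0.42, adjusted p = 0.913, limma) and by 0.04 in cKO (-0.22 to 0.31, adjusted p = 0.827). Both estimates were below 0 without scaling between libraries, at -0.022 and -0.028. *Spi1* was higher on the lesion side in 3 mice and lower in 3 mice.

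*Irf8*, the interferon regulatory factor that works with PU.1 in microglia and monocytes (chr8:120736358-120756694, plus strand), had 703.3, 670.4, 877.7 and 675.1 CPM in the 4 Ctrl CL libraries and 576.6, 580.1, 671.2 and 660.8 CPM in the 4 Ctrl IL libraries. In cKO mice it had 882.2, 891.4 and 866.1 CPM in CL cells against 760.0, 735.4 and 650.6 CPM in IL cells. In CPM the hemispheres overlapped in Ctrl by a narrow margin, and on values scaled over all 14 libraries the overlap was wider, since the CL library of mouse 3551 lay below all 4 IL libraries. In cKO they did not overlap on either scale. After scaling, the difference was -0.15 in Ctrl (-0.47 to 0.17, adjusted p = 0.640, limma) and -0.23 in cKO (-0.53 to 0.07, adjusted p = 0.232).

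*Runx1*, a factor that founds the blood lineages (chr16:92601466-92826149, minus strand), had 81.9, 83.7, 161.5 and 146.5 CPM in Ctrl CL libraries and 81.9, 94.5, 112.9 and 131.8 CPM in Ctrl IL libraries. Mice 3546 and 3551 were above mice 3541 and 3545 on both sides, and their scaling factors were higher as well, at 1.01 to 1.17 against 0.862 to 0.936. In cKO mice the values were 138.2, 140.0 and 118.3 CPM in CL cells and 119.2, 109.1 and 111.7 CPM in IL cells, which overlap. The differences were -0.04 in Ctrl (-0.46 to 0.37, adjusted p = 0.945, limma) and -0.15 in cKO (-0.39 to 0.09, adjusted p = 0.346), and the Ctrl estimate was above 0 without Ctrl CL mouse 3546, Ctrl CL mouse 3551 or Ctrl IL mouse 3541, at 0.083, 0.028 and 0.0047.

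*Mef2c* and *Mef2a*, MADS-box factors at microglial enhancers, were lower on the lesion side. For *Mef2c* (chr13:83504034-83667080, plus strand), the Ctrl CL libraries of mice 3541, 3545, 3546 and 3551 had 306.1, 324.5, 556.3 and 514.1 CPM and their IL libraries 177.2, 196.3, 343.0 and 280.6 CPM. The lesion side was lower in each of these mice. The groups overlapped in CPM, because the IL level of mouse 3546 lay above the CL levels of mice 3541 and 3545, but did not overlap on values scaled over all 14 libraries. In cKO mice *Mef2c* had 560.6, 526.9 and 453.7 CPM in CL cells and 289.2, 287.3 and 272.9 CPM in IL cells, without overlap.

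*Mef2c* fell in cKO by 0.78 on the log2 scale (SE 0.12, adjusted p = 0.00513, limma), and in Ctrl the difference was -0.69 (SE 0.19, adjusted p = 0.0553). With the mouse as a block, *Mef2c* passed in Ctrl at the same difference (SE 0.076, adjusted p = 0.00127, limma), and without the block it passed when the shallow Ctrl IL library of mouse 3546 was left out (-0.79, adjusted p = 0.0291). The 6 differences within mice were close to each other, from -0.65 to -0.69 on log2 values scaled over all 14 libraries, a scale slightly different from that of the fits. Such a narrow range was not seen for any other of the 9 factors.

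*Mef2a* (chr7:67231163-67372858, minus strand) had smaller differences than *Mef2c*. It had 252.5, 316.2, 541.5 and 436.9 CPM in Ctrl CL libraries and 199.3, 225.3, 393.0 and 269.8 CPM in Ctrl IL libraries, and it was lower on the lesion side in each mouse. In cKO it had 368.9, 385.8 and 426.5 CPM in CL cells against 236.0, 237.4 and 270.4 CPM in IL cells, without overlap. It fell in cKO by 0.60 (SE 0.090, adjusted p = 0.00468, limma). In Ctrl the difference was -0.42 (SE 0.20, adjusted p = 0.277), and with the mouse as a block it passed (SE 0.089, adjusted p = 0.0176, limma).

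The level of *Mef2a* relative to *Mef2c*, each as CPM per kb of merged exon length, was between 0.883 and 1.04 in Ctrl CL and between 1.03 and 1.23 in Ctrl IL libraries. It was between 0.705 and 1.01 in cKO CL and between 0.874 and 1.06 in cKO IL libraries. The ranges of CL and IL libraries overlapped in both genotypes, but the ratio was higher on the lesion side in all 6 mice with both hemispheres, for example 1.204 against 0.883 in Ctrl mouse 3541 and 1.06 against 1.01 in cKO mouse 3592. This difference in the ratio was not tested. A stretch of 302 of the 14681 exonic bases of *Mef2a* also lies in *Lysmd4* on the opposite strand, which had at most 8.76 CPM.

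*Maf* encodes c-MAF, a basic leucine zipper factor that restrains the self-renewal of macrophages (chr8:115682942-115707794, minus strand). Its values were 69.1, 110.1, 118.8 and 71.2 CPM in Ctrl CL libraries and 58.9, 62.8, 69.0 and 62.7 CPM in Ctrl IL libraries. The groups did not overlap in CPM, but they did on scaled values, where the CL library of mouse 3551 lay below all 4 IL libraries. In cKO mice *Maf* had 91.8, 71.3 and 110.3 CPM in CL cells against 54.5, 39.5 and 54.1 CPM in IL cells, without overlap.

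*Maf* fell in cKO by 0.80 (SE 0.17, adjusted p = 0.0155, limma), and in Ctrl the difference was -0.42 (SE 0.21, adjusted p = 0.285). Without cKO IL mouse 791, the lowest library, the cKO difference was -0.68 and no longer passed (adjusted p = 0.0614, limma). It was lower on the lesion side in 5 of 6 mice after scaling. *Maf* is also high in border-associated macrophages, whose 8 marker genes summed in Ctrl mice to between 447 and 1049 CPM on the CL side and between 710 and 1515 CPM on the IL side. In cKO mice the sums were between 271 and 694 CPM and between 472 and 947 CPM, and no marker was at 0 in all libraries of a group. The sum of 1515 CPM was that of the shallow Ctrl IL library of mouse 3546. *Mrc1* had 183.8 CPM there, against 42.7 to 62.3 CPM in the other Ctrl IL libraries. Differences of these markers are given with that library only. Of these 8 genes, *Ms4a7* was called higher on the lesion side in both genotypes and none was called lower, while 6 in Ctrl and 3 in cKO had an unadjusted p under 0.05 in limma. These went both ways in Ctrl, with differences of -1.27 for *Lyve1*, -0.94 for *Mrc1* and -0.90 for *Cbr2* against 0.95 for *Stab1* and 0.72 for *F13a1*, none of which passed. The part of these cells in the *Maf* result was not tested.

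*Cebpb*, a leucine zipper factor of inflammatory gene expression, rose on the lesion side of cKO mice (chr2:167688915-167690418, plus strand). The Ctrl CL libraries had 1147, 604.6, 569.8 and 504.7 CPM and the Ctrl IL libraries 1520, 1797, 852.6 and 1573 CPM. A single pair of libraries made these groups overlap, the CL library of mouse 3541 at 1147 CPM and the IL library of mouse 3546 at 852.6 CPM, and the lesion side was higher within every mouse. In cKO mice *Cebpb* had 739.4, 594.8 and 930.5 CPM in CL cells against 1384, 1205 and 1447 CPM in IL cells, without overlap.

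*Cebpb* rose in cKO by 0.92 (SE 0.17, adjusted p = 0.00931, limma). In Ctrl the difference was 1.13 (SE 0.37, adjusted p = 0.111), and it passed with the mouse as a block (SE 0.23, adjusted p = 0.0146, limma), without Ctrl CL mouse 3541 (1.43, adjusted p = 0.0382) and without the shallow Ctrl IL library of mouse 3546 (1.43, adjusted p = 0.0209). The CL library of mouse 3541 also had the most neutrophil transcripts, with 899 CPM of *S100a8*, while the 9 neutrophil genes together made 8086 CPM. Neutrophils use *Cebpb* as well. Their 9 genes summed in Ctrl mice to between 1365 and 8086 CPM on the CL side against 860 to 1364 CPM on the lesion side, and in cKO mice to between 1283 and 2276 CPM against 825 to 1063 CPM, so the lesion side was the lower. *Csf3r* was the highest of these genes on the lesion side, at 399 to 712 CPM in Ctrl and 537 to 713 CPM in cKO mice. The part of neutrophils in the *Cebpb* result was not tested. Of these genes, 0 of 9 were called between hemispheres in Ctrl (7 had an unadjusted p under 0.05 in limma) and 6 of 9 fell in cKO. The *Cebpb* gene model shares 312 of its 1504 exonic bases with *Tmem189* on the opposite strand (69.1 to 159.4 CPM), and the sources used here do not say that the counting used strand.

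*Bhlhe40* had the largest difference of the 9 factors between hemispheres. This gene (chr6:108660629-108666925, plus strand) had 39.1, 18.3, 28.6 and 28.4 CPM in the Ctrl CL libraries of mice 3541, 3545, 3546 and 3551, and 184.7, 162.7, 133.4 and 111.3 CPM in their IL libraries. In cKO mice it had 39.0, 42.5 and 62.2 CPM in CL cells and 170.7, 212.0 and 159.4 CPM in IL cells. The lowest IL value was above the highest CL value in both genotypes.

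*Bhlhe40* rose on the lesion side by 2.43 in Ctrl (SE 0.28, adjusted p = 0.00136, limma), a fold change of 5.40, and by 1.98 in cKO (SE 0.19, adjusted p = 0.00195), a fold change of 3.95. By the size of the increase it was the 55th of 16376 genes in Ctrl and the 110th of 16758 in cKO. The ratio of IL to CL within a mouse, in CPM, ran from 2.56 in cKO mouse 3592 to 8.89 in Ctrl mouse 3545. It passed the test in both genotypes under all alternatives and without any of the libraries left out in turn.

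*Bhlhe41*, its closest relative (chr6:145858243-145865558, minus strand), was not called between hemispheres. It had 67.9, 66.6, 136.6 and 89.7 CPM in Ctrl CL libraries and 53.8, 63.5, 77.9 and 92.2 CPM in Ctrl IL libraries, which overlap. In cKO mice it had 173.0, 179.1 and 108.6 CPM in CL cells against 108.0, 97.7 and 96.8 CPM in IL cells, which did not overlap in CPM but did on scaled values, where the CL library of mouse 3592 lay below the IL libraries of mice 784 and 791. The differences were -0.21 in Ctrl (-0.64 to 0.22, adjusted p = 0.616, limma) and -0.50 in cKO (-0.94 to -0.06, adjusted p = 0.0965), and the latter passed without cKO CL mouse 3592 (-0.73, adjusted p = 0.00306).

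Per kb of merged exons, *Bhlhe40* was at 0.299 to 0.822 of the level of *Bhlhe41* in Ctrl CL and at 0.322 to 0.818 in cKO CL libraries. On the lesion side it was at 1.72 to 4.91 times that level in Ctrl and at 2.26 to 3.10 times in cKO. The order of these relatives was therefore reversed between CL and IL cells in every library. A share of 1280 of the 6720 exonic bases of *Bhlhe41* lies in *Gm43909* on the opposite strand, which had at most 6.61 CPM.

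**Figure D2:**
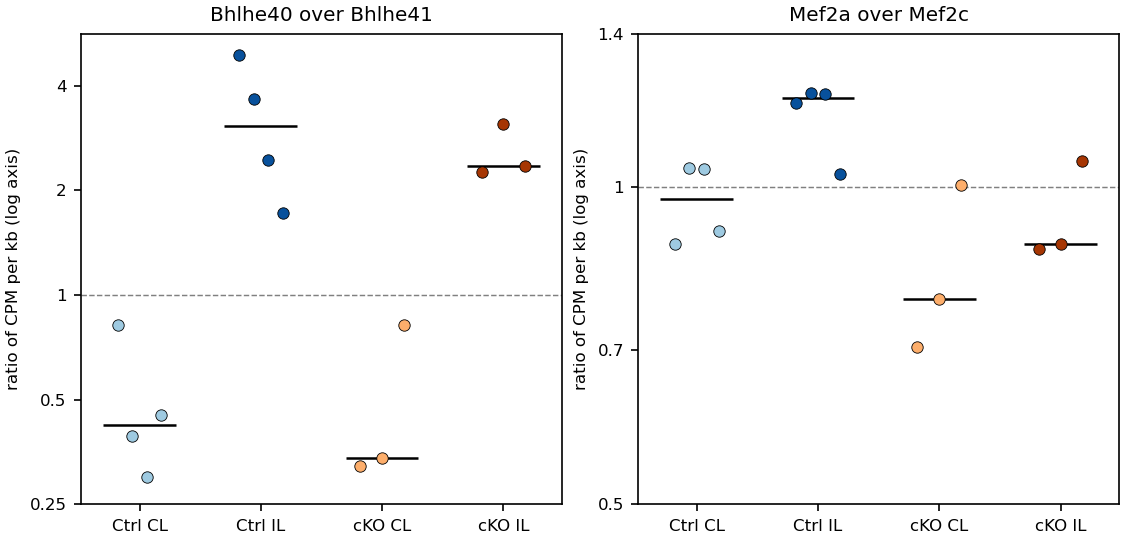
Ratio of the CPM per kb of *Bhlhe40* to that of *Bhlhe41* (left) and of *Mef2a* to *Mef2c* (right) in each library, by group, on log axes, with the median as a bar and equal levels as a dashed line. All CL libraries lie under 1 for *Bhlhe40* over *Bhlhe41*, at 0.822 or less, and all IL libraries above it, at 1.72 or more.

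**Figure D3:**
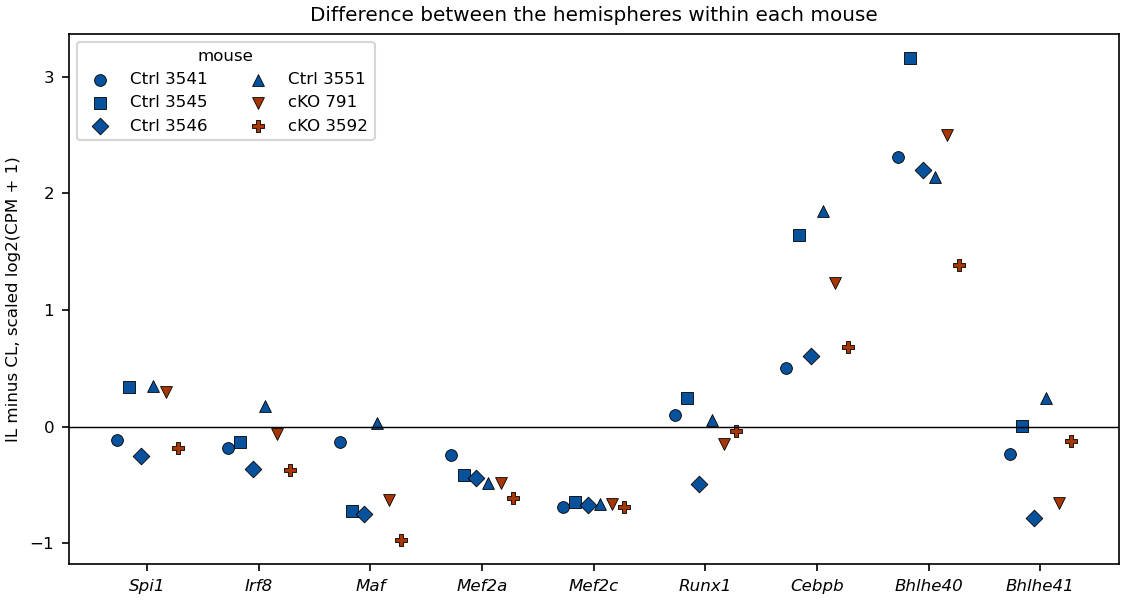
Difference between IL and CL cells of the same mouse on the scaled log2(CPM + 1) scale (y axis) for the 9 factors (x axis), 1 point for each of 4 Ctrl and 2 cKO mice. All 6 mice are above 0 for *Bhlhe40* and *Cebpb* and below 0 for *Mef2a* and *Mef2c*, and the points of *Mef2c* lie between -0.65 and -0.69.

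The order of the factors was compared as mean CPM per kb. In Ctrl CL cells *Cebpb* stood first (470 ± 197, SD, n = 4), followed by *Spi1* (147 ± 18.7) and *Irf8* (104 ± 13.95), whose ranges overlapped at 120 to 161 and 95.02 to 124. *Mef2c* (27.1 ± 8.17) and *Mef2a* (26.3 ± 8.75) came next and did not differ beyond their spread, nor did *Bhlhe41* (13.4 ± 4.87), *Maf* (11.2 ± 3.13) and *Runx1* (9.85 ± 3.46). *Bhlhe40* was last (6.07 ± 1.80), with a range that overlapped *Runx1*. In Ctrl IL cells *Cebpb* (954 ± 270), *Spi1* (144 ± 15.7) and *Irf8* (88.2 ± 7.20) kept their order, and *Bhlhe40* came next (31.5 ± 6.85), above *Mef2a* (18.5 ± 5.85) and *Mef2c* (15.9 ± 4.90). Its range of 23.7 to 39.3 overlapped that of *Mef2a*, 13.6 to 26.8. In cKO mice *Bhlhe40* went from 10.2 ± 2.67 (n = 3) in CL to 38.4 ± 5.89 in IL cells, where it was again next after *Irf8* (101 ± 8.14). Merged exons cover all annotated isoforms of a gene, and which of these were read is not known, so the order depends on lengths that run from 1504 bases for *Cebpb* to 15715 bases for *Mef2c*.

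Deletion of *Nhe1* was compared within each hemisphere, and no factor was called. In IL cells 0 of 9 factors passed in limma, with 2 at an unadjusted p under 0.05. Of the 16873 genes tested there, 0.676% were called in either direction and 1507 had an unadjusted p under 0.05. In CL cells 0 of 9 passed, with 2 at an unadjusted p under 0.05, beside 0.869% of 16570 genes called and 1655 at an unadjusted p under 0.05. The cKO and Ctrl libraries enter both these comparisons and those between hemispheres, so the comparisons are not independent.

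*Bhlhe41* had the smallest adjusted p of the factors in both hemispheres. The cKO IL libraries, at 96.8 to 108.0 CPM, lay above the Ctrl IL libraries, at 53.8 to 92.2 CPM, and the difference was 0.52 (SE 0.15, adjusted p = 0.253, limma). In CL cells the groups overlapped, with 108.6 to 179.1 CPM in cKO and 66.6 to 136.6 CPM in Ctrl, and the difference was 0.76 (SE 0.24, adjusted p = 0.255, limma). The adjusted p in its 14 alternatives lay between 0.125 and 0.800 in IL cells and between 0.0760 and 0.762 in CL cells.

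*Maf* in IL cells differed by -0.36 between cKO and Ctrl (SE 0.13, adjusted p = 0.419, limma), with 39.5 to 54.5 CPM against 58.9 to 69.0 CPM and no overlap. In CL cells its difference was -0.023 (-0.55 to 0.50), a value near 0 whose sign changed with the scaling. *Bhlhe40* in CL cells differed by 0.72 (SE 0.26, adjusted p = 0.353, limma), but the lowest cKO value, 38.97 CPM, lay just under the highest Ctrl value, 39.07 CPM. In IL cells its difference was 0.31 (-0.27 to 0.89). For the remaining factors the differences lay between -0.08 (*Mef2a*) and 0.24 (*Mef2c*) in IL cells and between 0.06 (*Mef2a*) and 0.29 (*Mef2c*) in CL cells, and each 95% interval included 0.

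Counted by ranges of unscaled CPM, 2 of 9 factors did not overlap between hemispheres in Ctrl (*Maf*, *Bhlhe40*), beside 17.7% of all genes tested, and 7 of 9 did not overlap in cKO, beside 42.4% of genes. Between genotypes 2 of 9 did not overlap in IL cells (*Maf*, *Bhlhe41*) and 0 of 9 in CL cells, beside 10.3% and 10% of genes. On values scaled over all 14 libraries, 2 of 9 did not overlap between hemispheres in Ctrl (*Mef2c* and *Bhlhe40*, without *Maf*), beside 15.3% of genes, and 6 of 9 in cKO (without *Bhlhe41*), beside 42.5%. Between genotypes *Maf* and *Bhlhe41* again did not overlap in IL cells, and *Irf8* did not overlap in CL cells, where cKO was the higher, beside 10% and 9.27% of genes. The interaction of genotype and hemisphere, fitted over all 14 libraries, asks whether the lesion response differs between cKO and Ctrl. It was called for 0 of 9 factors, with 0 at an unadjusted p under 0.05, and for 0% of 18476 genes, with 465 at an unadjusted p under 0.05 in limma. The interaction of *Bhlhe40* was -0.42 (-1.26 to 0.41), that of *Maf* -0.35 (-0.99 to 0.28), that of *Bhlhe41* -0.26 (-0.90 to 0.38) and that of *Cebpb* -0.18 (-1.24 to 0.88), which are wide intervals. The calls in cKO but not in Ctrl for *Maf*, *Mef2a*, *Mef2c* and *Cebpb* are therefore not shown to be differences between the genotypes.

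**Figure D4:**
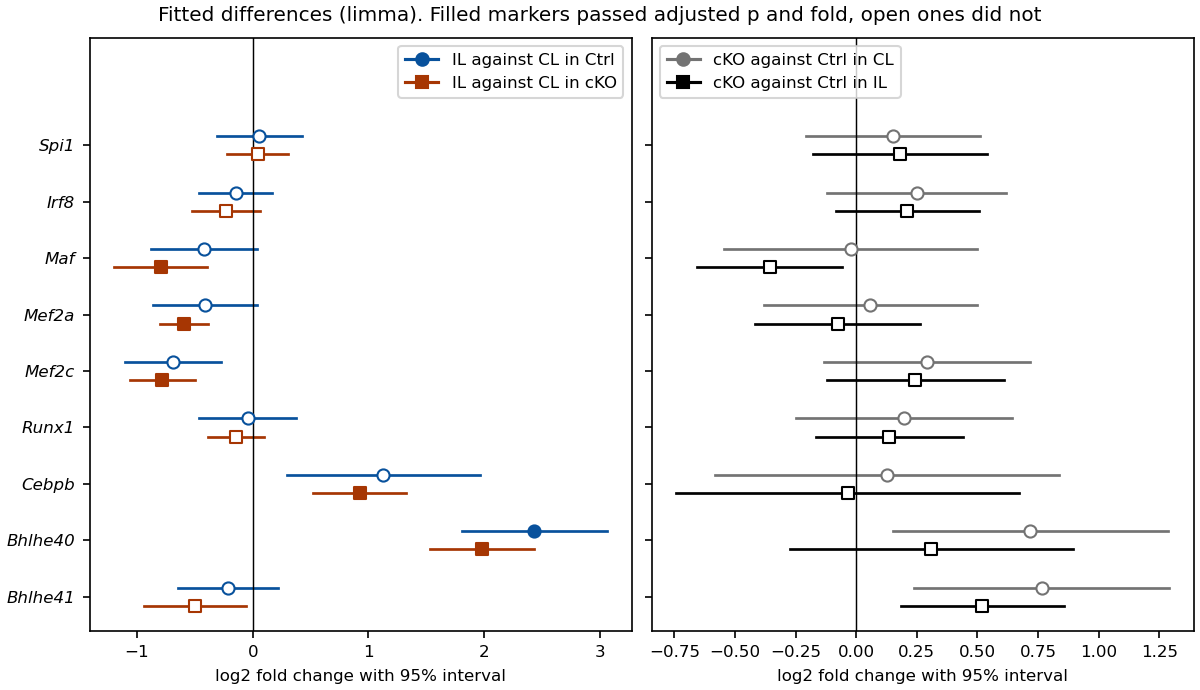
Log2 fold changes with 95% intervals (x axis) from limma for the 9 factors (y axis), between hemispheres (left, Ctrl as circles and cKO as squares) and between genotypes (right, CL as circles and IL as squares). Filled markers were called and open ones were not. All markers on the right are open, and *Bhlhe40* on the left reaches 2.43 in Ctrl and 1.98 in cKO.

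Paralogs of the factors were examined next, as 16 genes of which 14 were tested. *Runx3*, which is used by lymphocytes and by some mononuclear phagocytes, rose on the lesion side by 2.33 in Ctrl (SE 0.25, adjusted p = 0.000925, limma), with 1.18 to 3.35 CPM on the CL and 10.7 to 15.2 CPM on the lesion side, and by 1.72 in cKO (SE 0.26, adjusted p = 0.00480). The small MAF protein gene *Maff* rose by 0.86 in Ctrl (SE 0.20, adjusted p = 0.0305, limma) and by 1.33 in cKO (SE 0.30, adjusted p = 0.0175). *Irf4* fell in cKO by 1.04 (SE 0.22, adjusted p = 0.0141, limma), and in Ctrl its difference was -0.92 (SE 0.30, adjusted p = 0.108). In all, 2 of 14 were called higher and 0 lower in Ctrl, and 2 higher and 1 lower in cKO, with medians of 0.17 and -0.032. None was called between genotypes in limma, where 2 of 14 had an unadjusted p under 0.05 in each hemisphere.

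Other myeloid and microglial lineage factors were called in both directions. Of 32 tested in Ctrl, 5 fell and 2 rose, and of 31 tested in cKO, 10 fell and 1 rose, with medians of -0.29 and -0.31, beside 3.74% of all genes higher and 2.95% lower in Ctrl and 12.5% higher and 10.2% lower in cKO. These shares over all genes apply to the counts of paralogs and of dependent genes as well. *Sall1*, the factor that marks microglia among macrophages, fell by 0.92 in Ctrl (SE 0.22, adjusted p = 0.0351, limma), with 207.4 to 448.8 CPM on the CL and 97.5 to 214.1 CPM on the lesion side, and by 1.07 in cKO (SE 0.10, adjusted p = 0.00195). *Klf2* fell by 0.84 and 1.26, *Etv5*, an ETS factor, by 0.89 and 0.99, and the homeobox factor *Hhex* by 0.75 and 0.91, in Ctrl and cKO respectively. *Nr1h3*, which encodes the sterol sensor LXRα, rose by 1.74 in Ctrl (SE 0.31, adjusted p = 0.0108, limma) and by 2.06 in cKO (SE 0.29, adjusted p = 0.00358). *Tfec*, of the MiT family, rose by 1.01 in Ctrl (SE 0.26, adjusted p = 0.0477, limma), and in cKO its difference of 1.01 did not pass (SE 0.31, adjusted p = 0.0522). Between genotypes none was called in limma, with 2 of 31 in IL and 4 of 32 in CL cells at an unadjusted p under 0.05.

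**Figure D5:**
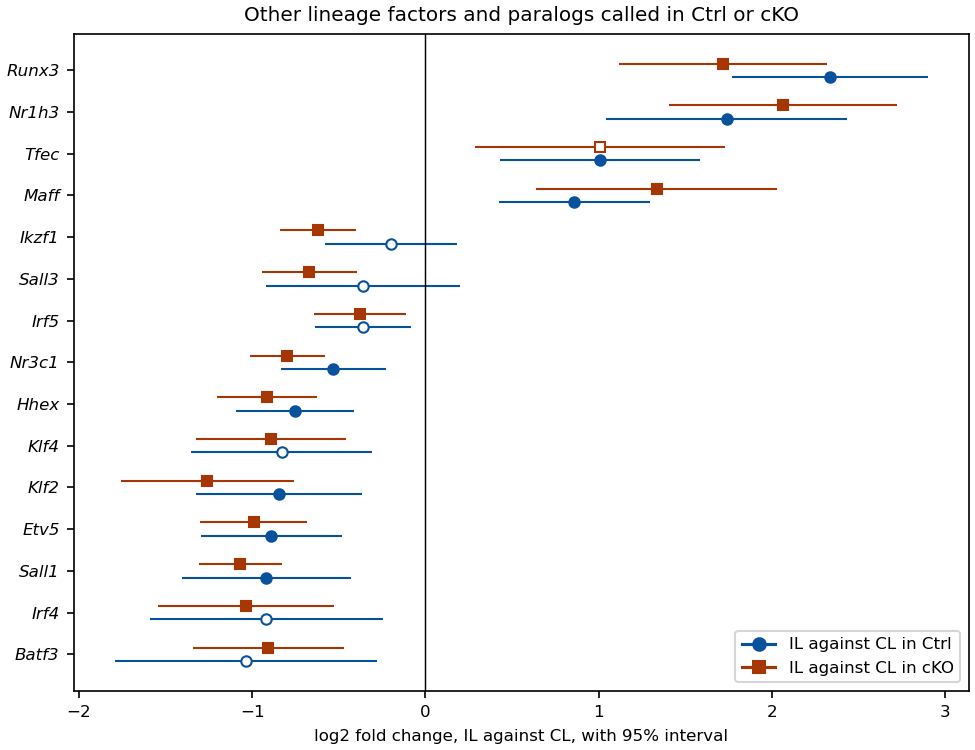
Log2 fold changes of IL against CL cells (x axis, 95% intervals) for the paralogs and other lineage factors (y axis) called in Ctrl (circles) or cKO (squares), with filled markers for calls. *Runx3*, *Nr1h3*, *Tfec* and *Maff* lie above 0 in both genotypes, and the remaining genes, with *Sall1* at -0.92 and -1.07, lie below it.

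Genes with a known dependence on PU.1 or IRF8 moved in both directions, while *Spi1* and *Irf8* were not called. Of 18 tested, 2 rose and 1 fell in Ctrl, and 5 rose and 3 fell in cKO, with medians of -0.22 and 0.070. *Msr1*, a scavenger receptor, rose by 3.78 in Ctrl (SE 0.27, adjusted p = 0.000143, limma) and by 3.53 in cKO (SE 0.57, adjusted p = 0.00570), and *Csf2ra*, a subunit of the GM-CSF receptor, rose by 1.38 and 1.12. *P2ry12*, the purinergic receptor of resting microglia, fell by 1.37 in both (adjusted p = 0.00508 and 0.00402, limma). None of the 18 was called between genotypes in limma, with 3 in IL and 1 in CL cells at an unadjusted p under 0.05.

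Of 11 genes with a known dependence on C/EBPβ, 3 rose and 0 fell in Ctrl, and of 10 tested in cKO 5 rose and 1 fell, with medians of 1.08 and 1.09. *Ptgs2*, the inducible cyclooxygenase, rose by 2.59 in Ctrl (SE 0.32, adjusted p = 0.00171, limma) and by 2.27 in cKO (SE 0.22, adjusted p = 0.00195). *Nos2* rose in Ctrl by 1.398 and was too low to be tested in cKO. Its level in Ctrl was near the floor, with 0 to 0.577 CPM on the CL and 1.64 to 4.89 CPM on the lesion side. *Lcn2*, which neutrophils also carry, fell in cKO by 1.498 (SE 0.41, adjusted p = 0.0348, limma), and in Ctrl its difference of -2.64 did not pass (SE 0.88, adjusted p = 0.112). None was called between genotypes in limma, with 1 of 11 in IL and 3 of 10 in CL cells at an unadjusted p under 0.05. *Cd14* is in both lists of dependent genes.

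Markers of the cell types in the sample moved with the hemisphere as well. Of 10 homeostatic microglia genes, which include *Sall1* and *P2ry12*, 8 fell and 0 rose in each genotype, and their sum on the CL side was 35098 to 44355 CPM in Ctrl and 32018 to 36421 CPM in cKO mice, against 19113 to 20572 CPM and 17539 to 19682 CPM on the lesion side. Of 8 monocyte genes, 4 rose and 0 fell in Ctrl and 5 rose and 0 fell in cKO, while in Ctrl *Ly6c2* (-1.03) and *Chil3* (-0.68) lay below 0 without passing, with sums on the CL side of 151 to 785 CPM in Ctrl and 147 to 343 CPM in cKO mice, against 478 to 795 CPM and 555 to 719 CPM on the lesion side. No marker of these lists was at 0 in all libraries of a group. Between genotypes *Olfml3*, of the homeostatic genes, fell in IL cells, and no marker of microglia, border-associated macrophages, monocytes or neutrophils was called in CL cells in limma (1, 4, 0 and 3 had an unadjusted p under 0.05). The part of these cell types in the differences of *Mef2c*, *Mef2a*, *Maf*, *Cebpb* and *Bhlhe40* was not tested.

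For each factor, the 2 genes most alike in pattern were found by Pearson's r of the scaled log2 values over the 14 libraries, among 5085 other protein-coding genes. These libraries share mice and groups, so r describes likeness only. *Bhlhe40* was most like *Ptgs2* (r = 0.975) and *Phlda1* (r = 0.974), both induced by stimulation in many cells, and *Ptgs2* is the same gene that rose on the lesion side above. *Mef2c* was most like *Pag1* (r = 0.980) and *Srgap2* (r = 0.970), and *Mef2a* like *Itga9* (r = 0.969) and *Galnt4* (r = 0.961). *Maf* was most like *Tmem64* (r = 0.931) and *Arid4a* (r = 0.924), and *Cebpb* like *Suds3* (r = 0.957) and *Aes* (r = 0.955). The factors with little change between hemispheres had neighbours at *Dcakd* (r = 0.966) and *Basp1* (r = 0.925) for *Spi1*, *Dpysl2* (r = 0.940) and *Acp6* (r = 0.912) for *Irf8*, and *Ccar2* (r = 0.866) and *Wnk1* (r = 0.862) for *Runx1*. *Bhlhe41* was most like *Sirpa* (r = 0.896), an inhibitory receptor of phagocytes, and *Tle4* (r = 0.895), a corepressor.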

How the data were processed

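RNA-seq libraries (Smart Seq v4) of 14 CD11b+ samples were mapped by the authors with STAR to mm10 (GRCm38) and analysed in Partek Flow 8.0. The deposited table is named as raw counts, but every library sums to 1e+06, so the values were read as CPM. Of values under 100 reads, 79.0% to 83.5% were whole multiples of a library's smallest step (tolerance 0.03), which gave the depth but not whole reads for nearly all genes, so no count test was run. The deposited tables of the authors' own comparisons (p-values and fold changes) were not used.

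In each fit, CPM were divided by trimmed-mean (TMM) factors that were estimated among its own libraries, and limma 3.58.1 (R 4.3.3) was fitted with a trend to log2(CPM + 1) of genes that reached the CPM of 10 reads in enough libraries, with Benjamini-Hochberg adjustment over all genes tested. The fit was also tested on simulated data. Differences within mice, likeness in pattern and the scaling factors quoted (0.862 to 1.17) use factors computed over all 14 libraries, so they differ slightly in scale from the fits. Positions and exon lengths are from GENCODE vM21. The numbers on libraries were taken to mark mice. IL and CL libraries with the same number deviated together (r = 0.181 to 0.610 in 6 pairs), but the ranges overlap with those of the 19 other pairs (r = -0.535 to 0.502, median -0.215). The Ctrl IL library 3545 correlated better with CL 3541 (0.502) than with its own number (0.447), and IL 784 with CL 788, kept unpaired, gave 0.181. The 9 factors were given as a list, and every list gene called was eligible to be named (up to 4 per direction). Values of some genes are not reported here. Members and lists were chosen with earlier results of these data known. Alternatives were a pseudocount of 0.1, no scaling, median-ratio scaling, no filter, the adjusted p alone, all 14 libraries in a single fit, the mouse as a block or random effect, and leaving out each library. Python 3.11.15 made the figures.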

Additional observations from a re-analysis of the deposited data

Results flagged for a closer look

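Among the 18 sets of 4 Ctrl libraries that were examined for a value far from the others (9 factors in CL and in IL cells), 2 held one, and chance alone gives about 1 in 20. For *Cebpb* in Ctrl CL cells, the gap between mouse 3541 (1147 CPM) and the next library (604.6 CPM) was 0.845 of the whole range of the group. The same library had the highest *S100a8* (899 CPM) and the highest sum of neutrophil genes (8086 CPM) of the 14 libraries. For *Irf8* in Ctrl CL cells, the gap between mouse 3546 (877.7 CPM) and the next library (703.3 CPM) was 0.841 of the range. The scaling factor of that library was 1.14, and those of the other Ctrl CL libraries were 0.924, 0.936 and 1.17. Both ratios are of CPM before scaling. On the scaled log2 values the same ratios were 0.617 for *Cebpb* and 0.0454 for *Irf8*, which do not pass the limit, and 2 other sets of the 18 passed it instead. These were *Spi1* in Ctrl IL cells, where the lowest library (mouse 3546) had a ratio of 0.948, and *Bhlhe41* in Ctrl CL cells, where the highest library (mouse 3546) had a ratio of 0.861.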

How the results depend on the processing

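The direction and the call of *Bhlhe40* between hemispheres held in both genotypes under every alternative run. Calls for factors in Ctrl rose from 1 to 3 in a joint fit of the 14 libraries and to 4 with the mouse as a replicate block or as a random effect, and leaving out 1 library gave 1 to 3 (2 without CL mouse 3541, 3 without IL mouse 3546). In cKO they fell from 5 to 2 in the joint fit (adjusted p of 0.0580 for *Maf*, 0.0950 for *Mef2a* and 0.143 for *Cebpb*), and leaving out 1 library gave 4 to 6. The paired fit changed no call of the 9 factors in cKO, where it rests on the 2 mice with both hemispheres. No factor was called between genotypes or for the interaction under any alternative.

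Counts over all genes moved as well. In Ctrl, 1096 genes became 545 without the filter, 1933 in the joint fit, 3306 with the replicate block and 4202 with the random effect, and 498 to 1445 without 1 library (508 without CL mouse 3545, 620 without CL 3546, 498, 540 and 582 without IL 3541, 3545 and 3551). In cKO, 3811 became 2507 without the filter, 1357 in the joint fit and 2378 with the block, and 1882 to 3547 without 1 library (2455 without CL 788, 1882 without IL 784 or IL 791, 2445 without IL 3592). Between genotypes, 114 in IL became 66 without the filter and 181 with the random effect (49 to 293 without 1 library: 62, 60, 293 and 67 without Ctrl 3541, 3545, 3546 and 3551, and 49 without cKO 784 or 791), and 144 in CL became 78, 259 in the joint fit and 280 with the random effect (70 to 165 without 1 library: 84 without Ctrl 3545, 76 without cKO 788 and 70 without cKO 791). The interaction had 3 genes with the random effect and 0 to 1 without 1 library (1 without the CL or the IL library of cKO mouse 791).

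Signs changed for estimates near 0. *Spi1* between hemispheres was -0.022 in Ctrl and -0.028 in cKO without scaling, and *Maf* between genotypes in CL cells was 0.0016 without scaling, 0.031 with median-ratio scaling and 0.020 with the random effect. Leaving out 1 library gave -0.16 to 0.083 for *Runx1* between hemispheres in Ctrl, -0.018 to 0.13 for *Spi1* in cKO, and between genotypes -0.14 to 0.062 for *Mef2a* and -0.32 to 0.15 for *Cebpb* in IL cells, and -0.18 to 0.15 for *Maf*, -0.078 to 0.22 for *Mef2a* and -0.056 to 0.43 for *Cebpb* in CL cells. The causes were not tested. With 3 or 4 libraries a group, the intervals between genotypes stay wide.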

Other observations

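Markers of cells outside the myeloid lineages ranged from very low sums to sums above the levels of some factors, such as *Runx1* (81.9 to 161.5 CPM). The 4 neuronal genes summed to at most 2.62 CPM in any library and the 6 T and NK cell genes to at most 11.9 CPM. Astrocyte genes made 104 to 209 CPM, oligodendrocyte genes 167 to 302 CPM and endothelial genes 68.7 to 157 CPM. Between hemispheres, *Gfap* rose and *Slc1a3* fell in both genotypes, *Kdr* rose in cKO, *Nkg7* fell in Ctrl, and *Ighm*, of 5 B cell genes that made 320 to 833 CPM, fell in both genotypes. No neuronal or oligodendrocyte gene was called in limma, where 2 of 5 oligodendrocyte genes in Ctrl and 1 of 5 in cKO had an unadjusted p under 0.05. Of 6 dendritic cell genes (27.3 to 78.9 CPM in sum), *Ccr7*, the receptor that guides migration to lymph nodes, rose in both genotypes.

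The dissociation response, 8 immediate early and heat shock genes that rise during preparation of cells, was higher on the CL side in sum, at 25229 to 34199 CPM in Ctrl and 30129 to 41793 CPM in cKO against 18524 to 21163 CPM and 19700 to 22666 CPM in IL libraries. In cKO 3 of 8 fell on the lesion side (*Fos*, *Jun*, *Hspa1a*), and in Ctrl 0 of 8 were called in limma, with 3 at an unadjusted p under 0.05.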
